A study of Mus musculus with 12 samples.

Results

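The proteasome genes measured here were the 45 whose symbols consist of Psma to Psmg and a number, without the immunoproteasome subunits Psmb8, Psmb9 and Psmb10. They were 45 of 23238 different symbols with values, and 48 symbols matched before the 3 were left out. They fall into 14 core particle subunits (7 in the alpha ring and 7 in the beta ring), 2 tissue-restricted core subunits, 17 regulatory particle subunits (6 ATPases and 11 others), 3 base assembly chaperones, 4 core assembly chaperones, 4 activators and 1 inhibitor. RNA came from kidneys of C57BL/6 mice in 3 groups of 4 libraries. The CKD TRF group had chronic kidney disease and time restricted feeding, the CKD group had chronic kidney disease, and the Control group is labelled as control only. How the disease was brought about, the feeding hours, the sex and age of the mice and whether each library came from its own animal are not given in the sources used here, so the errors measure the spread between these libraries.

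The proteasome is the cell's main machine for breaking down proteins tagged with ubiquitin. Its barrel-shaped core particle has outer rings of alpha subunits, which gate entry, and inner rings of beta subunits, 3 of which cut proteins. The regulatory particle caps the core, binds and removes ubiquitin, and unfolds the protein with a ring of ATPases before it enters the core. In many mammalian cells the transcription factor Nfe2l1 raises proteasome genes together when proteasome activity is low.

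Promoters of 4 of the genes described below are given first: Psmb5 and Psmb6, which encode cutting subunits and fell in both disease groups, Psmc6, an ATPase gene that fell with them, and Psme1, the 1 gene of the set that rose. Each runs 5′ to 3′ in the direction of the gene, from 250 bases before to 50 bases after the transcription start in RefSeq on GRCm38.p6. Capitals mark the letters TGACNNNGC, a core of the antioxidant response element that factors of the Nfe2l1 family bind, searched on both strands. The regions are chr14:54617946-54618245 on the minus strand for Psmb5, chr11:70525107-70525406 on the plus strand for Psmb6, chr14:45329574-45329873 on the plus strand for Psmc6 and chr14:55578244-55578543 on the plus strand for Psme1.
Psmb5: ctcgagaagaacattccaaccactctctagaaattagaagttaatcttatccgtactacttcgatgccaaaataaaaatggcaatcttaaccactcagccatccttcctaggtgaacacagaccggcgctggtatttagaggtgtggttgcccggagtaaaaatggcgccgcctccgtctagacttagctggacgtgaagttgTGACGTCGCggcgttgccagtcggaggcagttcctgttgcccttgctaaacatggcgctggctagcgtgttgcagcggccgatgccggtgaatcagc
Psmb6: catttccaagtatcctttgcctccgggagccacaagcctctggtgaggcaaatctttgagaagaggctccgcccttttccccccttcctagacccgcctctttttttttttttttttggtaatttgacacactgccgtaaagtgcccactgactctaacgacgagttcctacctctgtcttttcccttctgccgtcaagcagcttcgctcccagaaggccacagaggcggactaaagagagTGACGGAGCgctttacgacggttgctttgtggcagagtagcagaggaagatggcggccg
Psmc6: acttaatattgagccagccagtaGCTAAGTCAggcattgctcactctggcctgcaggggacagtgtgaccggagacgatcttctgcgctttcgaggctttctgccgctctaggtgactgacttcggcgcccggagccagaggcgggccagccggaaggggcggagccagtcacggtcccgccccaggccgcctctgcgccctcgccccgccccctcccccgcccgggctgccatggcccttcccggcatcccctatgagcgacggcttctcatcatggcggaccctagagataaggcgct
Psme1: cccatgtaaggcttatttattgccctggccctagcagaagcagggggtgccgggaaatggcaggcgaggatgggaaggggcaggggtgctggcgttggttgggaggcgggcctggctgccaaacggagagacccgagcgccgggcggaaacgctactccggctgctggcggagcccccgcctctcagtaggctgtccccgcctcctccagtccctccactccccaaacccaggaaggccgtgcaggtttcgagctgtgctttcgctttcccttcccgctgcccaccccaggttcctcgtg
In Psmb5 the match TGACGTCGC began at -47 from the start, and in Psmb6 the match TGACGGAGC began at -9. In Psmc6 the match lay on the opposite strand at -227, where the printed strand reads GCTAAGTCA, and in the Psme1 window there was none. Among the 37 proteasome genes with a RefSeq promoter of this length, 6 (16.2%) held the letters, against 13.99% of 27025 promoters. The letters CCAAT, searched in the same way and counted independently, were in 13 of the 37 (35.1%), against 41.1% of all. Of the 6 genes with TGACNNNGC, 4 were lower in CKD than in Control, as were 18 of the 31 without it. Those 31 include Psmb11, which was not tested. Psmb5, Psmb6 and Psmc6 are all among the 6, so the printed promoters do not stand for the whole set. Psmb7 and Psmc3, which had the largest falls, are not among the 37 with a sequence.

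Values are given as scaled reads, the deposited log2 value undone (a read number times a factor for its library). The recovered depth was 14141447 to 17204135 reads in CKD TRF, 14508060 to 16852419 in CKD and 10985848 to 12806068 in Control, so Control libraries were shallower than all others. Of the 45 genes, 43 were in the upper 60% of genes by mean level and were tested, with 13943 genes in all. A change is the difference of mean log2(scaled reads + 1) with its standard error (SE), and a gene was called at a limma p adjusted by the Benjamini-Hochberg method below 0.05. The tissue label was checked on markers: the summed level of 12 proximal tubule genes was 31316 to 39652 scaled reads in CKD TRF, 28244 to 34652 in CKD and 51719 to 69760 in Control, and none of them was at 0. Kap made up most of these sums, at means of 28228 scaled reads in CKD TRF, 26059 in CKD and 49923 in Control.

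Proteasome genes were broadly lower in CKD kidneys than in Control kidneys. In CKD against Control, 28 of the 43 tested genes were lower (65.1%), where 21.8% of all tested genes were (45.4% in either direction). Psme1 alone was higher, a direction called for 23.6% of all tested genes, 14 were not called, and the median change was -0.41, against 0.02 over all tested genes. In 26 of the 43 (60.5%) the CKD and Control libraries did not overlap, against 39.5% of all. Well-expressed genes were lower more often in general, so a limit at a mean log2 of 5 was added after the data were seen. Among genes at or above it, 25 of 37 proteasome genes were lower (67.6%), against 38.6% of 5215 genes.

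The same genes were set against Control in the time restricted feeding group. In CKD TRF against Control, 22 of 43 were lower (51.2%), where 17.9% of all tested genes were (37.5% in either direction), Psme1 was higher (19.5% of all tested genes were), and 20 were not called. The median change was -0.30, against 0.01 over all tested genes, and 21 of 43 did not overlap between groups, against 31.9% of all. At a mean log2 of 5 or more, 20 of 37 (54.1%) were lower, against 32.1%. Both comparisons use the same 4 Control libraries, so their likeness is no separate evidence.

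Markers of other cells in the kidney differed between the same groups. Summed levels of 12 macrophage genes were 632 to 808 scaled reads in CKD TRF, 669 to 851 in CKD and 186 to 232 in Control, and 12 of 12 were called higher in each disease group. Sums of 7 T cell genes were 18.2 to 20.8, 19.1 to 27.2 and 2.72 to 4.84 scaled reads in CKD TRF, CKD and Control, with 5 of 7 called higher in CKD TRF and 6 of 7 in CKD. Of the 12 proximal tubule genes, 8 were lower in each disease group. In bulk tissue, fewer cells of a type and less RNA per cell cannot be told apart, and the part of these shifts in the proteasome values was not tested. Fat markers were also present: 5 libraries, CKD TRF 1, 3 and 4 and CKD 2 and 4, held over 100 reads of Adipoq, a fat cell hormone. The 8 fat markers summed to 55.7 to 352 scaled reads in CKD TRF, 87.6 to 776 in CKD and 112 to 241 in Control, and 1 of them was at 0 in all Control libraries. Of the 7 tested, 5 were called higher in CKD TRF and 6 in CKD, while Fabp4, which is most of the Control sum at a mean of 164 scaled reads, was not called. Without these 5, chosen after the data were seen, 21 proteasome genes were lower (48.8%, against 13.9% of all tested genes) and Psme1 higher in CKD, with a median change of -0.43. That step leaves 1 CKD TRF library, whose spread is taken from the other groups, and 4 genes were then lower in CKD TRF than in Control, with a median of -0.28. Those 4 are 9.30% of the 43, against 4.83% of all tested genes called lower and 10.6% called in either direction, so few genes of any kind were called there.

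**Figure D1:**
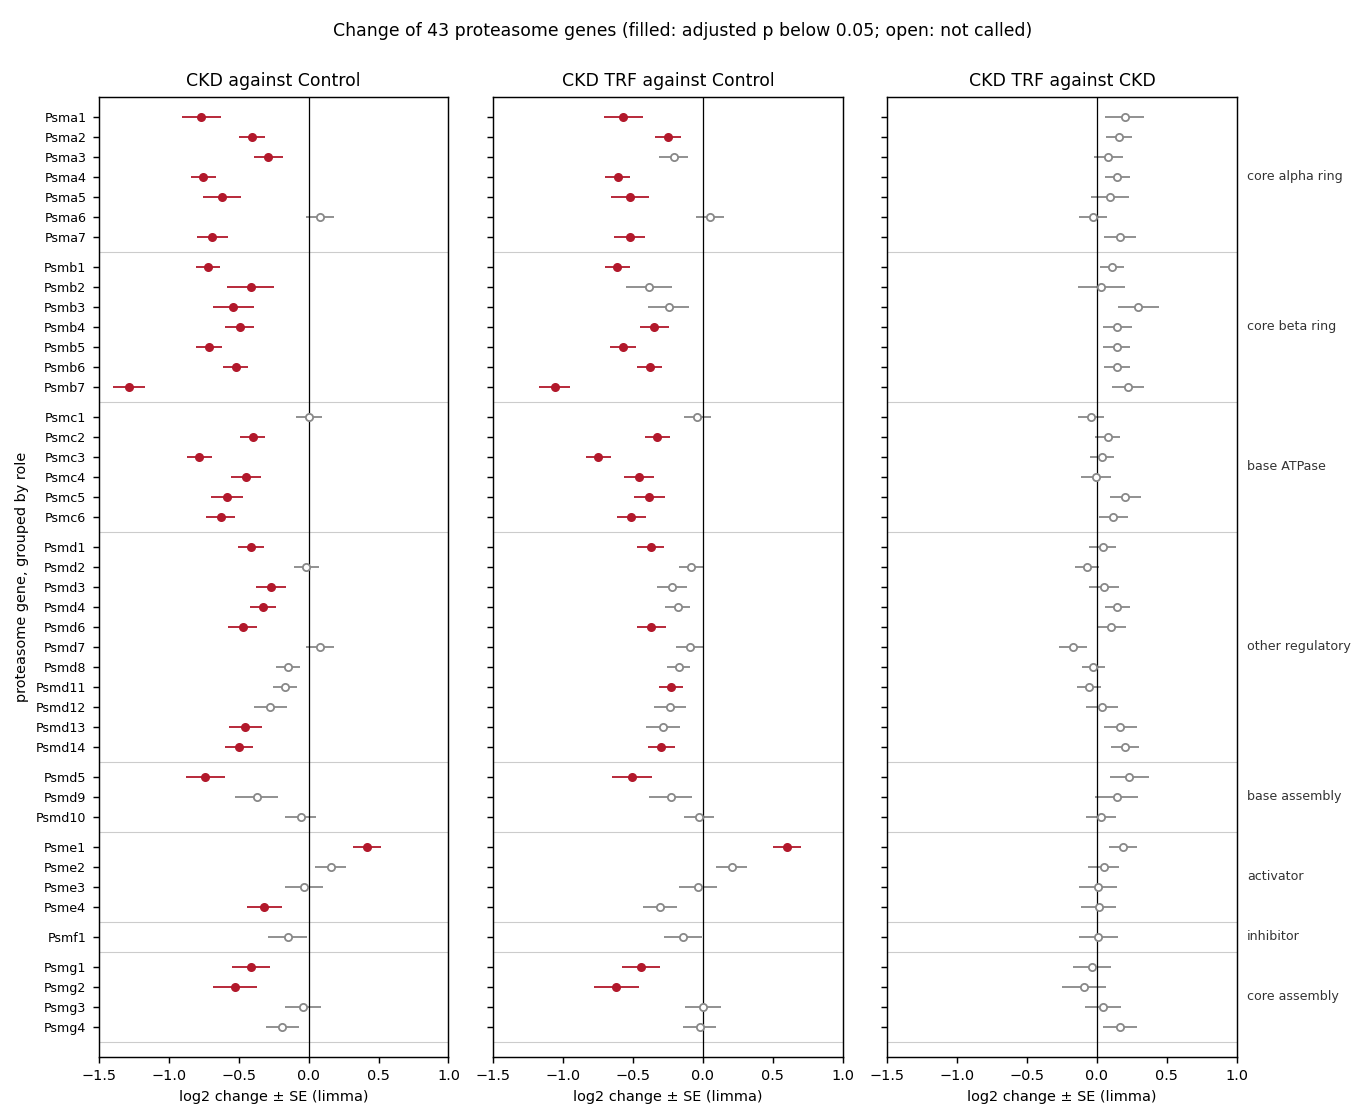
Change of each of the 43 tested proteasome genes by role on the log2 scale, in panels for CKD against Control, CKD TRF against Control and CKD TRF against CKD; points are changes, bars are 1 SE and filled points were called at an adjusted p below 0.05. In the panels against Control most points lie below 0 and Psme1 lies above it, and in CKD TRF against CKD no point is filled.

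In the core particle, 13 of 14 subunits were lower in CKD than in Control, with changes from -1.28 to 0.08 and a median of -0.58. Under time restricted feeding 10 of 14 were lower than in Control, with a median of -0.45. The beta ring was lower in all 7 of its genes in CKD and in 5 in CKD TRF, and the alpha ring in 6 and 5 of 7.

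Psmb7, which encodes the subunit with trypsin-like activity, had the largest fall of the 43 in both comparisons. It had 148, 133, 139 and 112 scaled reads in CKD TRF libraries, 107, 94.7, 120 and 135 in CKD libraries and 294, 297, 247 and 272 in Control libraries. No CKD TRF or CKD library came near the lowest Control library. Psmb7 fell by 1.28 ± 0.11 in CKD (SE, n = 4 and 4, limma adjusted p = 3.4e-08), a ratio of 0.411, and fell by 1.06 ± 0.11 in CKD TRF (adjusted p = 6.8e-07), a ratio of 0.479. As a share of the summed core subunits, Psmb7 was 6.15% ± 0.62 in CKD TRF, 5.81% ± 0.59 in CKD and 9.21% ± 0.24 in Control (SD, n = 4 each), with no overlap between either disease group and Control.

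Psmb5, the subunit with chymotrypsin-like activity, had 170, 173, 163 and 157 scaled reads in CKD TRF, 149, 142, 155 and 153 in CKD and 284, 263, 222 and 220 in Control. The 3 groups did not overlap. Psmb5 fell by 0.71 ± 0.09 in CKD (adjusted p = 5.7e-06) and fell by 0.57 ± 0.09 in CKD TRF (adjusted p = 9.7e-05), relative to Control. Psmb6, the subunit with caspase-like activity, had 137, 139, 132 and 128 scaled reads in CKD TRF, 125, 114, 116 and 131 in CKD and 185, 192, 164 and 160 in Control. Both disease groups lay below every Control library and overlapped each other. Psmb6 fell by 0.52 ± 0.09 in CKD (adjusted p = 1.1e-04) and fell by 0.38 ± 0.09 in CKD TRF (adjusted p = 0.00263), the smallest fall of the 3 cutting subunits in both. With quantile normalization the change of Psmb6 in CKD TRF was -0.20 and not called.

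Psmb1, a beta subunit without cutting activity, had 207, 224, 209 and 211 scaled reads in CKD TRF, 193, 196, 203 and 197 in CKD and 338, 365, 304 and 299 in Control. Its 3 groups were also apart. Psmb1 fell by 0.72 ± 0.09 in CKD (adjusted p = 1.9e-06) and fell by 0.61 ± 0.09 in CKD TRF (adjusted p = 1.9e-05). The other non-cutting beta subunits changed less: Psmb4 fell by 0.49 in CKD and fell by 0.35 in CKD TRF, while Psmb2 and Psmb3 fell by 0.42 and 0.54 in CKD and were not called in CKD TRF, at -0.38 and -0.24. In CKD 4, Psmb2 stood at 26.5 scaled reads beside 15.4 to 16.98 in the other CKD libraries, which is inside the Control range of 21.2 to 29.6.

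In the alpha ring, Psma4 had 249.2, 224, 225 and 220 scaled reads in CKD TRF, 210, 183, 227 and 211 in CKD and 366, 343, 331 and 361 in Control. The gap between disease and Control libraries was wider than the range within any group. Psma4 fell by 0.75 ± 0.09 in CKD (adjusted p = 1.4e-06) and fell by 0.61 ± 0.09 in CKD TRF (adjusted p = 2.7e-05). Psma1 had 70.4, 62.6, 84.0 and 72.9 scaled reads in CKD TRF, 67.7, 45.9, 78.5 and 63.2 in CKD and 124, 106, 88.9 and 113 in Control. These values were more scattered, with CKD TRF 3 at 84.0 close to Control 3 at 88.9. Psma1 fell by 0.77 ± 0.14 in CKD (adjusted p = 1.9e-04) and fell by 0.57 ± 0.14 in CKD TRF (adjusted p = 0.00342).

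Psma2, Psma5 and Psma7 were also lower in both disease groups, with changes of -0.41, -0.62 and -0.69 in CKD and -0.25, -0.52 and -0.52 in CKD TRF. Psma3 was lower in CKD (-0.29) and not called in CKD TRF (-0.21). Psma6 was the 1 core subunit not lower in CKD. It had 124, 136, 101 and 129 scaled reads in CKD TRF, 122, 126, 126 and 124 in CKD and 118, 128, 107 and 118 in Control, and the groups overlapped throughout. The change of Psma6 was 0.08 ± 0.10 in CKD (adjusted p = 0.53) and 0.05 ± 0.10 in CKD TRF, turning to -0.02 and -0.03 when libraries were centred on their median.

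**Figure D2:**
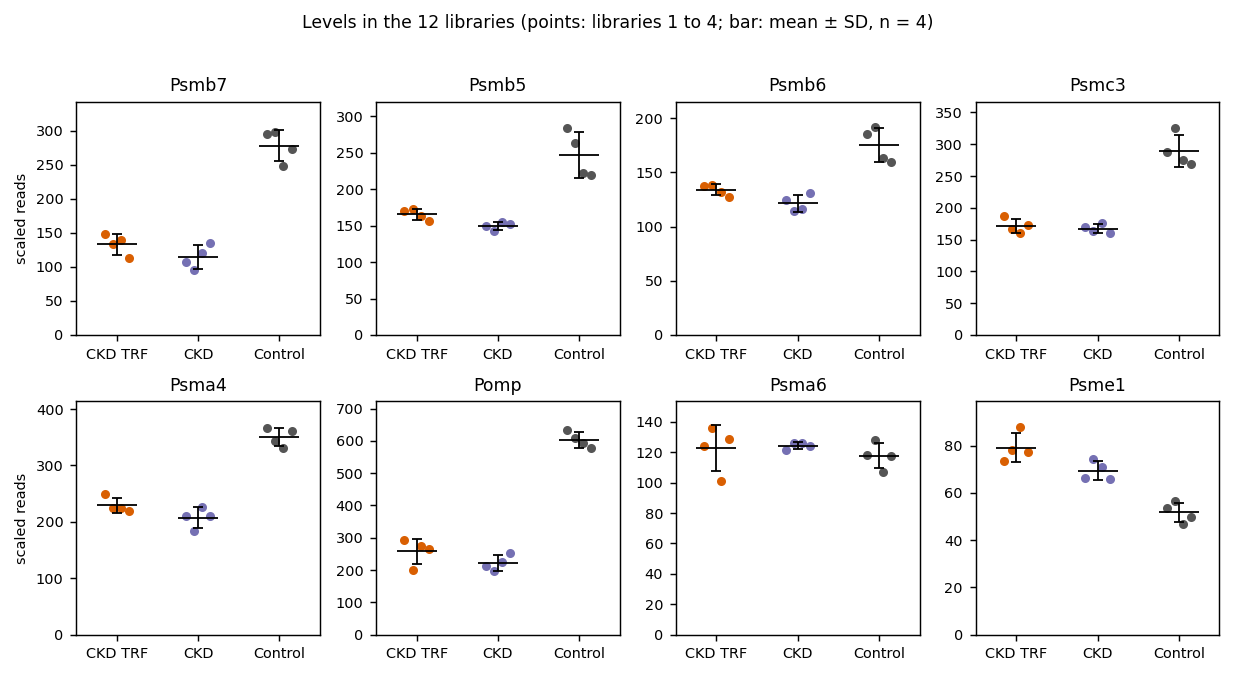
Scaled reads of Psmb7, Psmb5, Psmb6, Psmc3, Psma4, Pomp, Psma6 and Psme1 in each library of CKD TRF, CKD and Control; points are libraries and bars are the mean ± SD. Control libraries lie above both disease groups for the first 6 genes, the groups overlap for Psma6, and for Psme1 Control lies below both.

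In the regulatory particle 11 of 17 subunits were lower in CKD, with changes from -0.78 to 0.08 and a median of -0.40, and 9 of 17 in CKD TRF, with a median of -0.28. The ATPases of the base accounted for 5 of these in each comparison, with Psmc1 the exception. Psmc1 was at 152, 178, 143 and 140 scaled reads in CKD TRF, 160, 161, 154 and 153 in CKD and 164, 169, 155 and 141 in Control, and its change was 0.00 ± 0.09 in CKD and -0.04 ± 0.09 in CKD TRF. The CKD libraries lay inside the Control range.

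Psmc3, an ATPase subunit of the base, was second to Psmb7 in both comparisons. It had 186, 167, 160 and 173 scaled reads in CKD TRF, 170, 163, 176 and 160 in CKD and 288, 326, 275 and 270 in Control. CKD TRF and CKD libraries covered almost the same range, far below Control. Psmc3 fell by 0.78 ± 0.09 in CKD (adjusted p = 9.2e-07) and fell by 0.75 ± 0.09 in CKD TRF (adjusted p = 2.6e-06). Psmc2, Psmc4, Psmc5 and Psmc6 fell by 0.40, 0.45, 0.58 and 0.63 in CKD and fell by 0.32, 0.45, 0.38 and 0.51 in CKD TRF.

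Among the 11 other subunits, 6 were lower in CKD: Psmd1, Psmd3, Psmd4, Psmd6, Psmd13 and Psmd14, by changes of -0.41, -0.27, -0.33, -0.47, -0.45 and -0.50. Psmd14, the enzyme that removes ubiquitin chains before a protein is broken down, had 79.0, 76.9, 74.4 and 80.7 scaled reads in CKD TRF, 64.1, 69.4, 68.9 and 67.9 in CKD and 108, 83.4, 88.3 and 106 in Control, with no overlap between any groups. In CKD TRF, Psmd1, Psmd6, Psmd11 and Psmd14 were lower than in Control (-0.37, -0.37, -0.23 and -0.30). Each of these CKD TRF calls was lost with quantile normalization, with equal sums and with limma voom on recovered reads. Psmd4, a ubiquitin receptor, changed by -0.18 in CKD TRF and was not called.

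Psmd2, a large scaffold subunit to which ubiquitin carriers bind, and Psmd7, the partner of Psmd14, were not called. Psmd2 changed by -0.02 in CKD and -0.09 in CKD TRF, and Psmd7 by 0.08 and -0.09. The sign of both depended on the scaling: with quantile normalization Psmd2 and Psmd7 were called higher in CKD, by 0.23 and 0.33. Psmd8 and Psmd12 did not overlap between CKD and Control, yet their changes of -0.15 and -0.27 were not called (adjusted p = 0.16 and 0.059).

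The median fall was larger in the core than in the regulatory particle, and the balance of their summed reads shifted. The summed core subunits were 2161 ± 54.5 scaled reads in CKD TRF, 1957 ± 117 in CKD and 3024 ± 313 in Control (SD, n = 4 each). Summed regulatory subunits were 2410 ± 81.3 in CKD TRF, 2354 ± 35.9 in CKD and 2932 ± 138 in Control. The regulatory to core ratio was 1.12 ± 0.03 in CKD TRF, 1.21 ± 0.08 in CKD and 0.975 ± 0.072 in Control. CKD TRF and CKD libraries, at 1.09 to 1.15 and 1.12 to 1.30, lay above every Control library, the nearest of which was Control 3 at 1.08. Such a ratio within a library does not depend on the scaling between libraries. It compares reads, not particles, and has no test here since it is a score over chosen genes. Abundant genes weigh most in it. With each subunit weighted equally, as core minus regulatory mean log2, the groups overlapped. This difference was -0.12 to -0.04 in CKD TRF, -0.28 to -0.06 in CKD and -0.09 to 0.15 in Control.

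**Figure D3:**
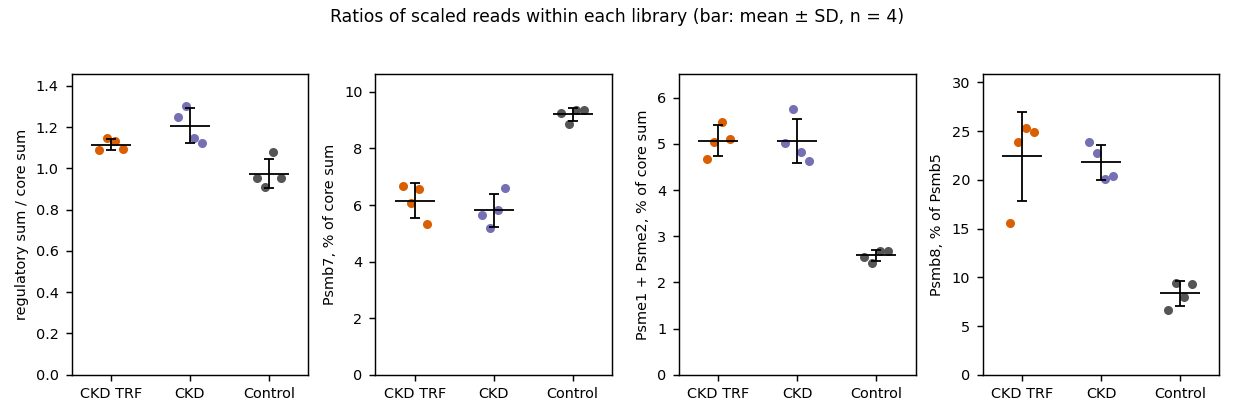
Ratios within each library in CKD TRF, CKD and Control: regulatory over core reads, Psmb7 as a percent of the core, Psme1 plus Psme2 as a percent of the core and Psmb8 as a percent of Psmb5; points are libraries and bars are the mean ± SD. Psmb7 takes a smaller share in both disease groups and the other 3 ratios are higher there than in Control.

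Assembly chaperones were split. Psmd5, which holds ATPases of the base during assembly, had 31.4, 40.04, 40.4 and 43.1 scaled reads in CKD TRF, 25.9, 35.9, 34.6 and 35.3 in CKD and 67.5, 54.4, 44.3 and 56.6 in Control. Control 3 was the nearest Control library to the disease groups. Psmd5 fell by 0.74 ± 0.14 in CKD (adjusted p = 2.6e-04) and fell by 0.51 ± 0.14 in CKD TRF (adjusted p = 0.00747). The other base chaperones Psmd9 and Psmd10 were not called, at -0.37 and -0.06 in CKD and -0.23 and -0.03 in CKD TRF.

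Of the 4 core assembly chaperones, Psmg1 and Psmg2, which work as a pair on the alpha ring, were lower in both comparisons. Psmg2 had 18.8, 18.9, 13.7 and 16.95 scaled reads in CKD TRF, 18.5, 18.7, 17.5 and 17.96 in CKD and 34.8, 20.8, 30.5 and 22.4 in Control. CKD libraries were tightly grouped, CKD TRF libraries less so and Control libraries were spread out, with Control 2 and 4 not far above the disease groups. Psmg2 fell by 0.52 ± 0.16 in CKD (adjusted p = 0.0107) and fell by 0.62 ± 0.16 in CKD TRF (adjusted p = 0.00444). Psmg1 changed by -0.41 in CKD and -0.44 in CKD TRF. Psmg3 and Psmg4, a pair that acts at the same stage, changed by -0.04 and -0.19 in CKD and 0.00 and -0.02 in CKD TRF and were not called. In CKD against Control, the calls of Psmg1 and Psmg2 were lost without Control 1, the highest Control library for both. Both were also lost with equal sums and with limma voom on recovered reads, and that of Psmg1 without CKD 4.

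Of the 4 activators, Psme1 was called higher in both disease groups, Psme4 was called lower in CKD, and Psme2 and Psme3 were not called. Psme1, a subunit of the ring that opens the core independently of ubiquitin and is induced by interferon gamma, had 73.3, 78.0, 87.7 and 77.4 scaled reads in CKD TRF, 66.4, 74.4, 70.9 and 65.8 in CKD and 53.5, 56.5, 47.0 and 49.9 in Control. Every disease library lay above every Control library. Psme1 rose by 0.42 ± 0.10 in CKD (adjusted p = 0.00179, a ratio of 1.34) and by 0.60 ± 0.10 in CKD TRF (adjusted p = 8.1e-05, a ratio of 1.52).

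Psme2, the partner of Psme1 in that ring, had 30.3, 32.6, 28.0 and 30.5 scaled reads in CKD TRF, 29.0, 30.2, 28.7 and 29.1 in CKD and 27.9, 24.8, 23.9 and 28.2 in Control. CKD lay just above Control, while CKD TRF 3 at 28.0 lay below Control 4. The change of Psme2 was 0.16 ± 0.11 in CKD and 0.21 ± 0.11 in CKD TRF, and neither was called (adjusted p = 0.262 and 0.155). Its near-identical copy Psme2b averaged 64.6 scaled reads in CKD TRF, 59.6 in CKD and 63.6 in Control, so reads may be split between them and Psme2 is uncertain. Psme1 and Psme2 together came to 5.07% ± 0.33 of the core reads in CKD TRF, 5.06% ± 0.48 in CKD and 2.59% ± 0.13 in Control.

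Psme3, a nuclear activator, had 40.7, 41.1, 43.1 and 41.8 scaled reads in CKD TRF, 34.3, 45.7, 40.3 and 47.0 in CKD and 58.0, 36.9, 39.8 and 38.5 in Control. The groups overlapped, Control 1 at 58.0 stood apart, and the changes of -0.04 ± 0.14 in CKD and -0.03 ± 0.14 in CKD TRF were not called and changed sign under other scalings. Psme4, a large single-chain activator, had 132, 206, 156 and 152 scaled reads in CKD TRF, 157, 152, 158 and 165 in CKD and 191, 160, 214 and 232 in Control. Its libraries overlapped in each comparison. Psme4 fell by 0.32 ± 0.12 in CKD (adjusted p = 0.0423), a call lost under 15 of the 24 alternatives, among them leaving out any 1 of Control 1, 3 and 4, the CKD libraries and CKD TRF 3 and 4, and changed by -0.31 ± 0.12 in CKD TRF (adjusted p = 0.0594).

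Psmf1, an inhibitor of the core in biochemical assays, had 31.4, 24.5, 28.1 and 24.6 scaled reads in CKD TRF, 27.8, 27.9, 22.8 and 29.3 in CKD and 38.1, 25.0, 30.0 and 27.9 in Control. The groups overlapped. Changes of -0.15 ± 0.14 in CKD and -0.14 ± 0.14 in CKD TRF were not called, and both were above 0 with equal sums (0.07 and 0.0001).

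The tissue-restricted core subunits, Psma8 of the testis and Psmb11 of the thymus, had few reads, lay below the level filter and were not tested. Psma8 ranged up to 0.501 scaled reads in CKD TRF, 1.18 in CKD and 0.8289 in Control, and Psmb11 up to 1.06, 0.519 and 0.730. An absence of reads would allow up to 3 reads, or 0.168 to 0.306 scaled reads depending on the library, for counting error only.

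The immunoproteasome subunits, which replace the cutting subunits in immune cells and in inflamed tissue, were also measured. Psmb8, the substitute for Psmb5, rose by 0.65 ± 0.14 in CKD (adjusted p = 0.00108) and by 0.81 ± 0.14 in CKD TRF (adjusted p = 2.1e-04), opposite to Psmb5. Psmb9 and Psmb10 were called higher in CKD TRF, by 0.53 and 0.38, and changed by 0.13 and 0.14 in CKD, where Psmb9 was at -0.08 with quantile normalization. Both calls in CKD TRF were lost with median centring and quantile normalization and without CKD TRF 2, and that of Psmb9 also without Control 1, Control 3, CKD TRF 3 or CKD TRF 4. The macrophage and T cell sums given above differed in the same direction, and their part in these values was not tested. The reads of Psmb8 were 22.4% ± 4.59 of those of Psmb5 in CKD TRF, 21.8% ± 1.83 in CKD and 8.36% ± 1.31 in Control.

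Time restricted feeding in CKD gave no called proteasome gene. In CKD TRF against CKD, 0 of 43 were called by limma, as were 0% of all 13943 genes. At an unadjusted p below 0.05 there were 0 proteasome genes among 890 genes of all kinds, and limma voom on recovered reads also called 0, with 1 proteasome gene at an unadjusted p below 0.05. The most such genes under any alternative were 4, with median centring. The median change was 0.08, and 34 of 43 changes (79.1%) were above 0, against 48.5% of all tested genes and 57.3% of those at a mean log2 of 5 or more. In the core 13 of 14 changes were above 0, with a median of 0.14, and in the regulatory particle 11 of 17, with a median of 0.04. With libraries set to equal sums the median over the 43 genes was 0.0016 and that of the regulatory particle -0.04, while the median of all tested genes moved by -0.07. Relative to the median of all tested genes, the 43 genes stood at 0.08 with equal sums, against 0.09 as deposited.

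Between CKD TRF and CKD, 5 of 43 genes (11.6%) did not overlap, against 4.5% of all tested genes: Psma2, Psmb1, Psmb5, Psmd4 and Psmd14. Each was higher in CKD TRF, and each change was small. Psma2 had 292, 285, 278 and 291 scaled reads in CKD TRF and 244, 246, 269 and 268 in CKD, a change of 0.16 ± 0.09 (adjusted p = 0.82). Psmb5 changed by 0.14 ± 0.09 (adjusted p = 0.836) and Psmb7 by 0.22 ± 0.11 (adjusted p = 0.789). A p that misses the threshold does not show that the groups are alike.

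Genes that work with the proteasome were taken as a list of 39, of which 37 were tested. In CKD against Control 14 were lower (37.8%, against 21.8% of all tested genes) and 1 higher, with a median of -0.15. The CKD TRF group had 8 lower (21.6%, near the 17.9% of all tested genes) and 1 higher than Control, with a median of -0.20, and 0 called against CKD. Of all genes at a mean log2 of 5 or more, 38.6% were lower in CKD and 32.1% in CKD TRF. The partners were not split by level. Pomp, which brings the beta subunits together and is degraded by each finished core, had 292, 202, 273 and 266 scaled reads in CKD TRF, 212, 197, 226 and 254 in CKD and 635, 610, 592 and 577 in Control. Control was far above every disease library. Pomp fell by 1.44 ± 0.11 in CKD (adjusted p = 4.7e-09) and fell by 1.23 ± 0.11 in CKD TRF (adjusted p = 6.7e-08), further than any of the 43 tested proteasome genes.

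Shfm1, the older symbol under which the small regulatory subunit gene Sem1 is listed, fell by 0.63 ± 0.13 in CKD and fell by 0.49 ± 0.13 in CKD TRF. Adrm1, a ubiquitin receptor of the regulatory particle, changed by 0.24 ± 0.10 in CKD (adjusted p = 0.0525) and 0.10 ± 0.10 in CKD TRF.

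Nfe2l1 changed by 0.10 ± 0.11 in CKD (adjusted p = 0.474) and 0.08 ± 0.11 in CKD TRF. Nfe2l2, the related regulator of antioxidant genes, rose by 0.53 ± 0.11 in CKD (adjusted p = 5.6e-04) and by 0.35 ± 0.11 in CKD TRF (adjusted p = 0.0173), a call lost with median centring and without Control 2 or CKD TRF 1.

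The number of calls depended on how libraries were scaled and, in CKD TRF, most on leaving out the libraries with fat RNA. The deposited scaled reads summed to 987502 to 1025504 in CKD TRF, 940904 to 978104 in CKD and 1076402 to 1179702 in Control. Setting all sums equal moved the median of all tested genes up by 0.21 in CKD against Control and by 0.13 in CKD TRF against Control. Then 15 of 43 proteasome genes were lower and 4 higher in CKD, with Psma6, Psmd7 and Psme2 joining Psme1, and 13 were lower and 2 higher in CKD TRF. Lower calls were then 34.9% and 30.2% of the 43 genes in CKD and CKD TRF, against 11.1% and 10.3% of all tested genes, while calls in either direction were 44.2% and 34.9%, near the 46.9% and 36.5% of all tested genes. Relative to the median of all tested genes the proteasome median stayed at -0.41 in CKD and -0.29 in CKD TRF, against -0.43 and -0.31 as deposited, and with quantile normalization it was -0.16 and -0.11. With quantile normalization 20 were lower (46.5%, against 22.6% of all tested genes) and 3 higher in CKD, and 14 were lower (32.6%, against 17.9%) and 1 higher in CKD TRF. Median centring gave 32 lower (74.4%, against 28.1%) and 1 higher in CKD, and 30 lower (69.8%, against 23.1%) and 1 higher in CKD TRF. None of the 29 genes called in CKD or the 23 called in CKD TRF changed sign under any of the 24 alternatives run.

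In CKD against Control, 15 of the 29 were called under all 24 alternatives: Psma1, Psma4, Psma5, Psma7, Psmb1, Psmb5, Psmb6, Psmb7, Psmc3, Psmc5, Psmc6, Psmd5, Psmd6, Psmd14 and Psme1. In CKD TRF against Control, 11 of the 23 were called under all 4 other scalings, and Psma1, Psma4, Psmb7 and Psmc3 under all 24 alternatives. Leaving out any 1 library other than CKD TRF 1 ended the call of at least 1 of Psma3, Psmb2, Psmd3, Psme4, Psmg1 and Psmg2 in CKD. For CKD TRF, leaving out any 1 library other than CKD 1 and CKD 2 ended the call of at least 1 of Psma2, Psmd11, Psmd14 and Psmg1.

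In the GENCODE annotation, the 3′ ends of Psmb7, Psmc3, Psma3 and Psme1 overlap a gene on the opposite strand that has values here. There the 3′ end of Psmg3 also overlaps Gm26938 on the opposite strand, and that of Psmd1 overlaps Gm21972 on the same strand. By RefSeq positions, Psmb7 does not overlap Nek6 and Psmc3 does not overlap Slc39a13, while Psma3 and Psme1 still overlap their opposite genes. Gm26938 and Gm21972 have no values here. Whether counting used strand is not given in the sources used here. Nek6, opposite Psmb7, averaged 17.6 scaled reads in CKD TRF, 18 in CKD and 15.0 in Control and was not called. Emc9, opposite Psme1, was not called either, at -0.09 ± 0.13 in CKD. Slc39a13, opposite Psmc3, rose by 0.63 ± 0.15 in CKD, and 3110056K07Rik, opposite Psma3, fell by 0.54 ± 0.20 there at a mean of 2.58 scaled reads in CKD and 4.19 in Control.

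**Figure D4:**
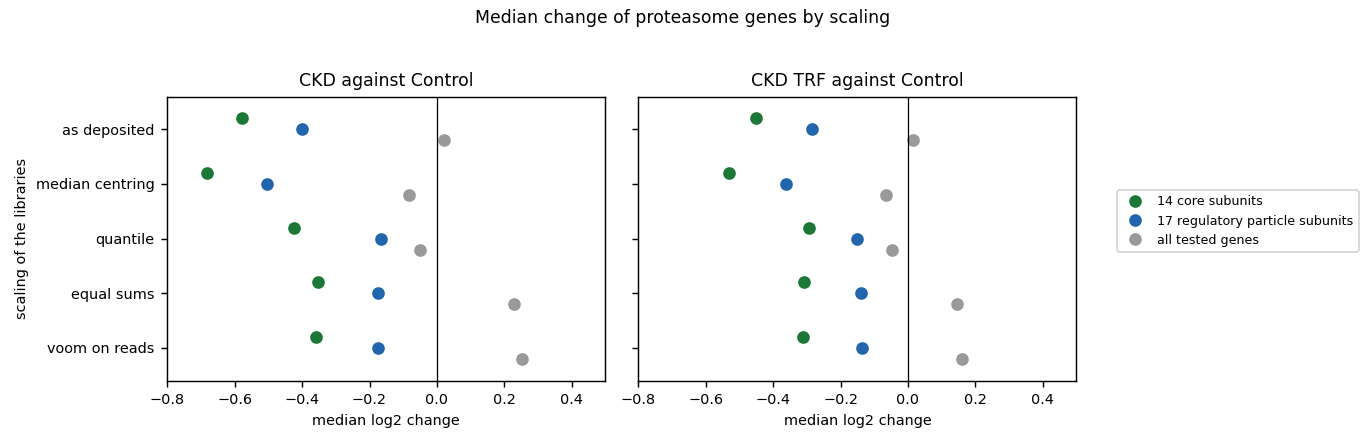
Median log2 change of the 14 core subunits, the 17 regulatory subunits and all 13943 tested genes in CKD and CKD TRF against Control under 5 scalings of the libraries; points are medians. Core medians lie lowest and regulatory medians next under each scaling, both below the median of all tested genes.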

How the data were processed

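QuantSeq libraries, which read the 3′ ends of polyadenylated RNA, were made from total RNA with a Lexogen kit, per the labels' protocols. The submitters' processing notes name Bowtie2, bedtools and mm10 without versions or roles. The deposited log2 values are log2(scaled reads + 1), read from the values: below 20 scaled reads, 98.3% to 100% of values were whole reads to within 0.1. The authors' scaling method is not given in the sources used here.

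From these values 1 model with a mean for each of the 3 groups was fitted in limma 3.58.1 (R 4.3.3), with a two-sided moderated test, a trend of the spread with the level and Benjamini-Hochberg adjustment over 13943 genes (upper 60% by mean, at least 0.729). Of 35 symbols with more than 1 entry the highest was kept; none is a proteasome gene. The script was tested on simulated data. Alternatives were 4 scalings, 2 pseudocounts, 2 filters, sample weights, the replicate number as a block, the compared groups only, single libraries left out, and the libraries with fat RNA left out.

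Values of each library are printed for up to 5 members with the largest rise and 5 with the largest fall among called members whose groups did not overlap, for Psmb5, Psmb6, Psmb7, the activators and Psmf1. Psma2, Psma6, Psmc1 and Psmd14 were added after their values were seen. Of the partners, the 2 largest called rises and falls and 5 set genes are named, apart from genes not reported here. Members and lists were chosen with earlier results of these data known. Promoters and positions are from RefSeq on GRCm38.p6 and overlaps from GENCODE.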

Additional observations from a re-analysis of the deposited data

Results flagged for a closer look

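In 7 of 153 sets of 4 libraries (a proteasome or partner gene in 1 group), 1 library stood far from the other 3 on the log2 scale by Dixon's gap criterion. Chance gives such a set about 1 time in 20. Psma5 was at 5.33 in CKD TRF 4, with the other CKD TRF libraries at 4.92 to 4.96. Psmd9 was at 4.604 in CKD TRF 4, with the others at 5.05 to 5.13, and Psmd10 at 5.91 in CKD TRF 2, with the others at 5.58 to 5.61. Psmb8 was at 4.78 in CKD TRF 1, with the others at 5.32 to 5.40. Psmd4 was at 7.75 in CKD 2, with the others at 7.87, and Psmd5 at 4.75 in CKD 1, with the others at 5.15 to 5.21. Psme3 was at 5.88 in Control 1, with the others at 5.25 to 5.35.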

How the results depend on the processing

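The number of proteasome genes called in CKD against Control was 29 and fell to 19 with equal sums and to 19 with limma voom, and was 33 with median centring. It was 23 in CKD TRF against Control and fell to 15 with quantile normalization, 15 with equal sums, 14 with limma voom and 4 without the libraries with fat RNA, which leaves 1 CKD TRF library, and was 31 with median centring. The cause was not tested. Leaving out 1 library at a time gave 23 to 29 calls in CKD against Control and 19 to 24 in CKD TRF against Control. The replicate block gave 28 and 21 calls in these comparisons and 0 between CKD TRF and CKD. Same-numbered libraries correlated at -0.18 to 0.11 and differently numbered ones at -0.15 to 0.17, so no sign of pairing was seen. What the numbers mark is not given in the sources used here. No alternative called a proteasome gene in CKD TRF against CKD.

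Signs turned for uncalled genes. In CKD against Control, Psme3 was at 0.0004 with quantile normalization, 0.19 with equal sums, 0.20 with voom, 0.0095 with sample weights and -0.10 to 0.11 without single libraries. Psmf1 was at 0.0707 with equal sums and 0.0777 with voom, Nfe2l1 at -0.0008 with median centring and Psmb9 at -0.0806 with quantile normalization. In CKD TRF against Control, Psme3 was at 0.0057, 0.11, 0.12 and 0.0069 under the same 4 settings and -0.10 to 0.11 without single libraries. Psmf1 was at 0.0001 with equal sums and 0.0063 with voom. Without the fat libraries Psme4 was at 0.0607 and Nfe2l1 at -0.14, and Nfe2l1 was at -0.0185 to 0.16 without single libraries.

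In CKD TRF against CKD, with equal sums and voom, Psmc3 was at -0.0448 and -0.0461, Psme2 at -0.0299 and -0.0334, Psme3 at -0.0747 and -0.0771, Psme4 at -0.0681 and -0.0676 and Psmf1 at -0.0706 and -0.0714. With quantile normalization Psmc3 was at -0.0048 and Psme4 at -0.0359. Psme3 was at -0.0026 with sample weights and Nfe2l1 at 0.0040 with median centring. Without the fat libraries Psma1 was at -0.22, Psmc3 at -0.0475, Psmf1 at -0.0370, Psmg2 at 0.0660 and Pomp at -0.12. Without single libraries Psmc3 was at -0.0037 to 0.0699, Psme3 at -0.0842 to 0.0635, Psme4 at -0.11 to 0.10, Psmf1 at -0.0672 to 0.0528, Psmg2 at -0.14 to 0.0038 and Nfe2l1 at -0.0711 to 0.0529. Of 528 values per comparison for 22 named genes, 498 kept direction and call here, 486 in CKD against Control and 486 in CKD TRF against Control.

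Psma8 and Psmb11 lay below the level filter, so no changes are given for them, and Control libraries were shallower than the rest.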

Other observations

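Control libraries varied most in their proteasome genes: the median SD over the tested members was 0.13 in CKD TRF, 0.10 in CKD and 0.17 in Control on the log2 scale. Control 2 was the highest Control library for 20 members, Control 1 for 17, and Control 3 the lowest for 19. All 45 members together took 0.509% ± 0.013 of the scaled reads in CKD TRF, 0.508% ± 0.0025 in CKD and 0.588% ± 0.021 in Control (SD, n = 4 each).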
